A study of Homo sapiens with 3 samples.

Results

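Rab GTPases are the largest branch of the Ras family of small GTP-binding proteins. The family was taken here as every gene whose symbol is RAB followed by a number, with at most 1 further letter and 1 further digit, which gave 63 of the 33538 features in the deposited matrices. The series holds 3 single-cell RNA libraries of SC-alpha cells, the name its labels give to cells driven from pluripotency towards the glucagon-secreting alpha cell of the pancreatic islet. All 3 were made from HUES8, a human embryonic stem cell line in wide use, with a published differentiation protocol. The labels number them as replicates 1 to 3 of 1 group and name no genetic change, treatment or second condition. The labels do not say whether the replicates were separate differentiations, so every p-value below measures only how far differences inside libraries vary between these libraries. HUES8 is a single line, and cells made from it in culture stand for no donor's islets.

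A Rab protein cycles between a GDP-bound form held in the cytosol and a GTP-bound form on a membrane, where it recruits effectors that move, tether or fuse vesicles. Exchange factors switch a Rab on, GTPase-activating proteins switch it off, and lipid carriers return it to the cytosol. Each member works on its own compartments: RAB1 and RAB2 between endoplasmic reticulum and Golgi, RAB5 at early endosomes, RAB7 at late endosomes, RAB11 in recycling, and RAB3 and RAB27 on the secretory granules that endocrine cells release on demand. The 63 members were therefore placed in 7 role lists, of 8 genes for regulated secretion, 13 for endoplasmic reticulum and Golgi, 10 for early endosomes, 11 for recycling and delivery to the plasma membrane, 8 for late endosomes and lysosomes, 3 for cilia and 10 for other or less settled roles.

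Members were measured in 4 classes of cells, each defined by the RNA it holds. A barcode was kept if it showed 1000 or more genes and no more than 20% of its UMIs (counted RNA molecules) were mitochondrial, which left 1160, 1027 and 1466 cells in replicates 1, 2 and 3, with 18739098, 21126353 and 15346684 UMIs. All barcodes together held 30139788 to 31122791 UMIs per library. GCG cells gave at least 5% of their UMIs to glucagon, INS cells at least 1% to insulin, TPH1 cells held at least 3 UMIs of the serotonin-synthesis enzyme TPH1, and collagen cells at least 5 UMIs of COL1A1, COL1A2 and COL3A1 together. The classes compared held 828, 811 and 908 GCG cells, 26, 59 and 7 INS cells, 33, 17 and 105 TPH1 cells, and 10, 11 and 106 collagen cells in replicates 1, 2 and 3. Median UMIs per cell ran from 10481.5 to 21781 over the libraries in GCG cells, 15383 to 20799 in INS cells, 8067 to 13903 in TPH1 cells and 10837.5 to 19655 in collagen cells. Between 1 and 4 barcodes were shared by any pair of libraries, and 0 of those were kept in both.

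The classes are called by their genes, because their other markers were mixed. The sums that follow leave out the genes that define the classes. The other 6 alpha-cell markers were all detected in GCG cells and summed to 74566 to 76619 UMIs per 1000000 UMIs (CPM), against 9977 to 20519 in TPH1 cells and 584 to 796 in collagen cells. One of them, GC, went the other way, at 1580 to 2282 CPM in TPH1 cells against 569 to 910 in GCG cells. INS cells were not separate from GCG cells: 23, 46 and 3 of them also met the glucagon rule, their alpha-marker sum was 62931 to 75838 CPM, and somatostatin (SST) stood at 5624, 9329 and 46847 CPM. Of the 6 other beta-cell markers 5 were detected in INS cells, with IAPP at 953, 33.1 and 4533 CPM in replicates 1, 2 and 3 against 19.0, 7.40 and 2.30 in GCG cells and PDX1 at 15.3, 20.2 and 68.2 against 8.67, 11.7 and 8.10. DLK1 stood at 26.8, 70.2 and 780 CPM in INS cells against 34.5, 26.1 and 40.3 in GCG cells. G6PC2 counted 1 UMI in each library of INS cells, and NKX6-1 counted 0, 4 and 2. On CPM, DLK1, G6PC2 and NKX6-1 were below GCG cells in replicate 1 and above them in replicates 2 and 3. MAFA was at 0 in INS cells and at 0.168 to 0.339 CPM in GCG cells. TPH1 cells carried all 5 other enterochromaffin markers, at 1512 to 1563 CPM against 215 to 274 in GCG cells, but ADRA2A counted only 0, 3 and 0 UMIs there and LMX1A 1, 0 and 2. Collagen cells carried all 6 other mesenchymal markers, at 3368 to 4837 CPM against 0.542 to 8.30 in GCG cells, and also proliferation markers (4 of 4, 358 to 840 CPM against 1.1 to 15.5).

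Promoter windows are shown here for 4 members called in collagen cells: RAB3B and RAB17 are at or near 0 there, RAB34 is high, and RAB25, an epithelial Rab, varied there from 3.23 to 88.8 CPM between libraries. Each window is RefSeq's (GRCh38.p14), from 250 bases before to 50 bases after the listed start, 5′ to 3′ on the gene's own strand. Capitals mark CACCTG on either strand (CACCTG or CAGGTG), the form of E-box that the SNAI and ZEB repressors of epithelial genes are known to recognise. The windows are RAB3B at chr1:51990651-51990950 on the minus strand, RAB17 at chr2:237590685-237590984 on the minus strand, RAB25 at chr1:156060910-156061209 on the plus strand and RAB34, for the first of its 3 listed starts, at chr17:28718219-28718518 on the minus strand.
RAB3B: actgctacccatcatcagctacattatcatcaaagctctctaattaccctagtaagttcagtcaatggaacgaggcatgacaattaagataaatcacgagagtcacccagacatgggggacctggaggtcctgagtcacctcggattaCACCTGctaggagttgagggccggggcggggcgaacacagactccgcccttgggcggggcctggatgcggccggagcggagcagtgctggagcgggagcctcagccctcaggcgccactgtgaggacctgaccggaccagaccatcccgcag
RAB17: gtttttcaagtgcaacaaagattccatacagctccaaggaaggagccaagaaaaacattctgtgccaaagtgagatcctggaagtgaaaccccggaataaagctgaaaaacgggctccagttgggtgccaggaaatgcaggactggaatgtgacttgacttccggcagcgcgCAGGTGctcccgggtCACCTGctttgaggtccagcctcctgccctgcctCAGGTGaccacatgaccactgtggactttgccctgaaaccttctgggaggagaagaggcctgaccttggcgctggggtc
RAB25: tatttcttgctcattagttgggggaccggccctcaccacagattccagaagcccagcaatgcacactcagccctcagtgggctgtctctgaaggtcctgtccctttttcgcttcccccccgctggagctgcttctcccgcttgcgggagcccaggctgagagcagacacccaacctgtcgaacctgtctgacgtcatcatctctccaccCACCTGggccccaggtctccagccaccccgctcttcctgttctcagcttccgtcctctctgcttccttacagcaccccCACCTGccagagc
RAB34: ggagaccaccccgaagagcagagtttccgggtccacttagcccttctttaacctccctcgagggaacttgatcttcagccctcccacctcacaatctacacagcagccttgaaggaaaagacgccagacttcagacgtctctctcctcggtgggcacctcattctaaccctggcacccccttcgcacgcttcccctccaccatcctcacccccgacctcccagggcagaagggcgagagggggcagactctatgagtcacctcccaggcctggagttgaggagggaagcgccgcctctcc

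RAB17 held 3 copies of the motif, RAB25 2, RAB3B 1 and RAB34 0. These genes were picked with their levels in collagen cells known, and counts for the other members called there are not given. Whether the motif goes with lower levels in collagen cells was not tested. Among all 35116 RefSeq promoter windows of this length, 20.6% held at least 1 copy and 0.635% at least 3. Of the 63 members, 50 matched the table by symbol with 71 windows, and 12 of these (16.9%) held the motif, a share no higher than that of all promoters. The GC box GGGCGG on either strand was in 52 of the 71 Rab windows (73.2%) against 45.0% of all, and RAB3B held 3 copies while the RAB17, RAB25 and RAB34 windows held 0. None of these letter matches was tested for binding.

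Summed over all 63 members, Rab RNA was 2351 ± 60.1 CPM (SD, n = 3) in GCG cells, 2382 ± 160 in INS cells, 3323 ± 146 in TPH1 cells and 2359 ± 71.6 in collagen cells. Because each UMI stands for 1 molecule tagged at its 3′ end, CPM levels of different genes can be set side by side without a correction for length. The TPH1 sum lay above the other classes in every library, but the hormone genes GCG and INS and the carrier gene TTR took 22.4% of all UMIs in GCG cells and 1.76% in TPH1 cells. Scaled to UMIs without those genes, the sums were 3030 ± 115 in GCG cells, 2993 ± 200 in INS cells, 3382 ± 121 in TPH1 cells and 2363 ± 71.7 in collagen cells. The TPH1 sum was thus 1.41 times the GCG sum on the full scale and 1.12 times without the hormones, and the collagen sum was 1.00 and 0.780 times. Thinned to 5000 UMIs, a median GCG cell showed 9, 10 and 9 different members in replicates 1, 2 and 3, a TPH1 cell 12, 13 and 12, an INS cell 8, 9.5 and 9, and a collagen cell 7, 8 and 9; the unthinned medians were 21, 24 and 16, then 20, 23 and 16, then 21, 23 and 18, then 15.5, 18 and 15.

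The roles were not weighted alike in the 4 classes. Role sums are given on the full scale and were not rescaled without GCG, INS and TTR. Those genes took 22.4% of UMIs in GCG cells and 1.76% in TPH1 cells. Leaving them out moved the ratio of TPH1 to GCG cells for the whole family from 1.41 to 1.12. In each library that rescaling would change all role sums of a class by the same factor. Differences between classes in the role sums are therefore given for the full scale, and their size without those genes was not computed. Members of regulated secretion summed to 425 ± 33.3 CPM in GCG cells, 480 ± 66.7 in INS cells, 805 ± 20.6 in TPH1 cells and 38.1 ± 2.94 in collagen cells. RAB3B and RAB27A made up 593 ± 21.6 CPM of the TPH1 sum and 257 ± 22.1 of the GCG sum, and the other 6 members 212 ± 5.97 and 168 ± 12.2. The cilium list went the other way, at 38.3 ± 1.80 CPM in GCG cells, 35.8 ± 10.2 in INS cells, 29.3 ± 6.74 in TPH1 cells and 270 ± 14.5 in collagen cells. Recycling members formed the largest group in every class, from 749 ± 50.5 CPM in INS cells to 975 ± 77.9 in TPH1 cells. The late endosome and lysosome list ran from 275 ± 57.5 CPM in collagen cells to 337 ± 19.2 in TPH1 cells.

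**Figure D1:**
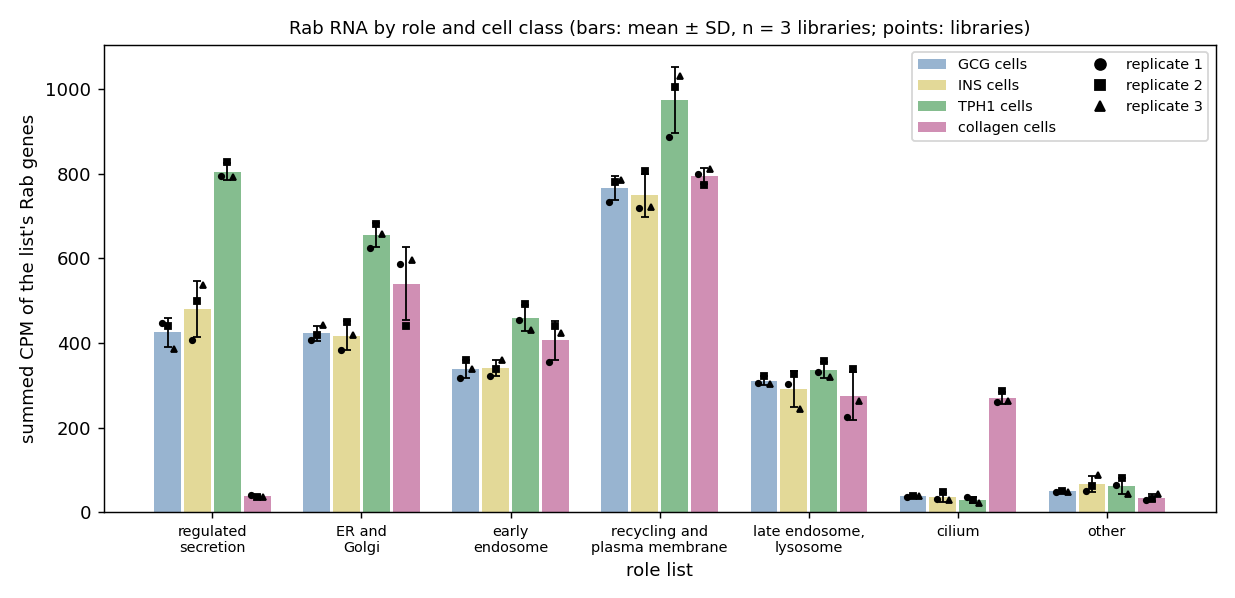
Summed CPM on the full scale (linear axis from 0) of the Rab genes in each role list for GCG, INS, TPH1 and collagen cells. Bars give the mean ± SD of 3 libraries and points the libraries; the secretion list stands at 805 CPM in TPH1 cells and 38.1 in collagen cells, and the cilium list at 270 CPM in collagen cells and under 40 in the other classes.

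In GCG cells 6 members reached 100 CPM and 39 reached 10 CPM, 10 lay under 1 CPM, and RAB41 had 0 UMIs. RAB3B, a granule Rab, was the highest by its mean, at 241, 249 and 205 CPM in replicates 1, 2 and 3. RAB11A, the recycling-endosome Rab, followed at 212, 210 and 212 CPM, and since replicate 3 put RAB11A above RAB3B, the order of these 2 genes is not settled. RAB2A (161 ± 14.8 CPM, SD, n = 3), RAB13 (147 ± 12.4), RAB7A (136 ± 9.14) and RAB14 (104 ± 7.0) came next, then RAB29 (98.2 ± 5.17), RAB10 (92.6 ± 2.75), RAB1A (86.9 ± 1.64) and RAB25 (76.7 ± 11.4). These 10 held 57.2% of the family's UMIs, and 54 of the 62 neighbouring pairs in the order had overlapping ranges. The top pair was also RAB3B and RAB11A in INS cells (312 ± 85.8 and 188 ± 14.5 CPM) and in TPH1 cells (467 ± 56.6 and 256 ± 33.8), whereas collagen cells were led by RAB13 (313 ± 0.834), RAB34 (243 ± 21.4) and RAB2A (224 ± 57.4), with RAB11A at 121 ± 19.5. In collagen cells 60 of the 62 neighbouring pairs overlapped, in INS and TPH1 cells 59.

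**Figure D2:**
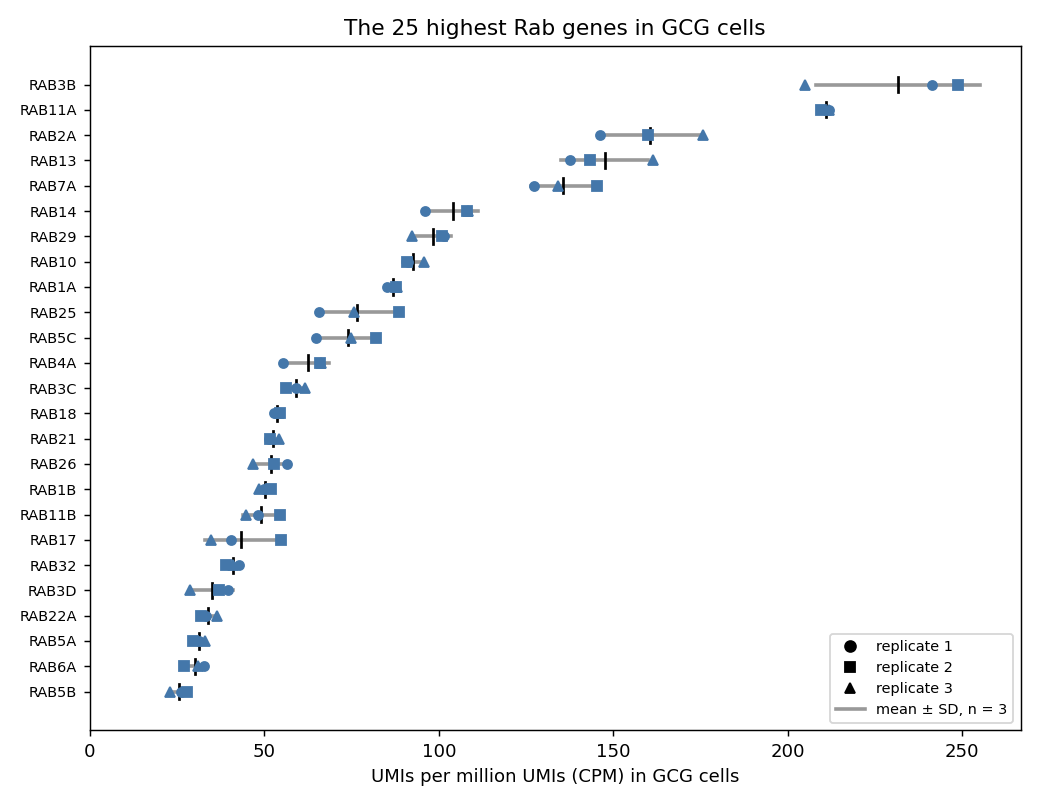
CPM in GCG cells (linear axis) of the 25 Rab genes with the highest means; symbols are the 3 libraries, the black tick the mean and the grey line ± SD. RAB11A lies between 210 and 212 CPM in all 3 libraries, and RAB3B between 205 and 249.

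Levels in GCG cells varied little between libraries. Over the 39 members at 10 CPM or more, the highest library was a median of 1.16 times the lowest, and 13 members stayed under 1.1 times. The exceptions above 1.5 times were RAB37, at 13.9, 10.6 and 7.5 CPM (1.85 times), and RAB17, at 40.5, 54.8 and 34.8 CPM (1.57 times). RAB37 is a granule Rab and RAB17 a Rab of polarised epithelial cells.

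Differences between classes were tested on counts summed per library and class with edgeR's quasi-likelihood test, the library as block and Benjamini-Hochberg adjustment over all genes, and a gene was called at an adjusted p under 0.05. The TPH1 and collagen comparisons use the GCG sums of all 3 libraries, and the INS comparison those of replicates 1 and 2, so they share controls. Fold changes are relative to edgeR's TMM scaling; on plain CPM the median gene stood higher by 0.49 on the log2 scale in TPH1 cells than in GCG cells, and its log2 ratio was -0.03 in INS cells and -0.04 in collagen cells. Low counts kept 10 members out of the INS and TPH1 tests (RAB6C, RAB6D, RAB7B, RAB19, RAB38, RAB40A, RAB41, RAB42, RAB43 and RAB44), and 8 out of the collagen test, where RAB7B and RAB38 entered. RAB6A and its near-identical copies RAB6C and RAB6D, and RAB40A and RAB40B, can share reads, so their separate counts are uncertain.

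Of 53 members tested in INS cells against GCG cells, 0 were called higher and 0 lower, where 0.862% and 0.465% of all genes were called. At an unadjusted p under 0.05, edgeR gave 2 members higher and 2 lower, and DESeq2, which also called 0, gave 0. This test rests on replicates 1 and 2, because replicate 3 had 7 INS cells, under the minimum of 10. The groups' plain CPM did not overlap for 21 of the 53 members, against 39.9% of all genes. RAB3B was at 228, 308 and 400 CPM in INS cells of replicates 1, 2 and 3, against 241, 249 and 205 in GCG cells, with a log2 fold change of 0.17 ± 0.09 (SE) over replicates 1 and 2 and an edgeR adjusted p of 0.647. INS cells were below GCG cells in replicate 1 and above them in replicates 2 and 3. With up to 30% mitochondrial UMIs allowed, which brings in replicate 3, RAB3B passed at 0.34 with an edgeR adjusted p of 0.0492. RAB3D, a granule Rab of many secretory cells, stood at 23.0 and 26.6 CPM in INS cells and 39.7 and 37.1 in GCG cells of those replicates (log2 fold change -0.58 ± 0.22 SE, edgeR adjusted p of 0.258). Its 2 groups did not overlap, but the difference did not pass the threshold.

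In TPH1 cells 3 of 53 tested members rose against GCG cells (RAB27A, RAB30 and RAB3B) and 3 fell (RAB34, RAB8B and RAB29), where 6.5% of all genes were called higher and 7.67% lower. At 5.66% in each direction, the family's shares lie near those of all genes. DESeq2 called 3 higher and 1 lower. Plain CPM of the 2 groups did not overlap for 24 of 53 members against 48.1% of all genes, and the median log2 fold change was -0.12 over the members and -0.02 over all genes.

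RAB27A, which carries secretory granules to the cell cortex and docks them there, lies at chr15:55202966-55319113 (GRCh38, minus strand). It measured 132, 86.3 and 161 CPM in TPH1 cells of replicates 1, 2 and 3 and 26.1, 22.7 and 26.3 in GCG cells. Every TPH1 value was above every GCG value. The log2 fold change was 1.88 ± 0.17 (SE), with an edgeR adjusted p of 6.6e-07, and it ranged from 1.61 to 2.12 over 13 alternative settings, passing in each. A RAB27A UMI was seen in 44.7% ± 5.34 (SD, n = 3) of TPH1 cells thinned to 5000 UMIs, against 13.0% ± 1.28 of GCG cells and 0.680% ± 1.18 of collagen cells, and unthinned in 58.9% ± 5.44, 31.3% ± 6.31 and 20.2% ± 7.03. The signal was spread over 21, 9 and 63 TPH1 cells, although 1 cell held 40.0% of the 20 UMIs in replicate 2. INS cells stood at 28.8, 23.4 and 9.75 CPM, the last from a single UMI.

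RAB3B, whose gene body spans chr1:51907956-51990764, measured 444, 531 and 425 CPM in TPH1 cells against 241, 249 and 205 in GCG cells, again without overlap. Its log2 fold change on the TMM scale was 0.49 ± 0.12 (SE; edgeR adjusted p of 0.00715). It fell short without replicate 3 (0.41, edgeR adjusted p of 0.116) and with stricter class rules (0.45, edgeR adjusted p of 0.0573). A RAB3B UMI was seen in 86.8% ± 8.35 of thinned TPH1 cells, 69.2% ± 4.54 of INS cells, 66.9% ± 4.07 of GCG cells and 2.04% ± 3.54 of collagen cells (unthinned, 93.8% ± 0.411, 95.9% ± 4.24, 89.5% ± 6.2 and 2.52% ± 4.36). RAB3B was thus found in most cells of the other 3 classes, and the source of its few UMIs in collagen cells was not tested.

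The other 6 secretion members were not called in TPH1 cells, and the median log2 fold change over all 8 was -0.02. RAB3C, a neuronal and endocrine relative of RAB3B, measured 68.5, 108 and 58.3 CPM in TPH1 cells against 59.1, 56.2 and 61.6 in GCG cells, with overlap. RAB26, a Rab of secretory granules in gland cells, measured 63.5, 43.2 and 71.1 CPM against 56.5, 52.8 and 46.7, again with overlap. RAB3A, the synaptic-vesicle Rab, stood at only 7.60 to 9.52 CPM in GCG cells, and the RAB27A relative RAB27B at 2.37 to 3.59. RAB27B counted 3, 3 and 8 UMIs in TPH1 cells (7.62, 12.9 and 9.33 CPM), a log2 fold change of 1.09 ± 0.52 (SE) with an edgeR adjusted p of 0.198.

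**Figure D3:**
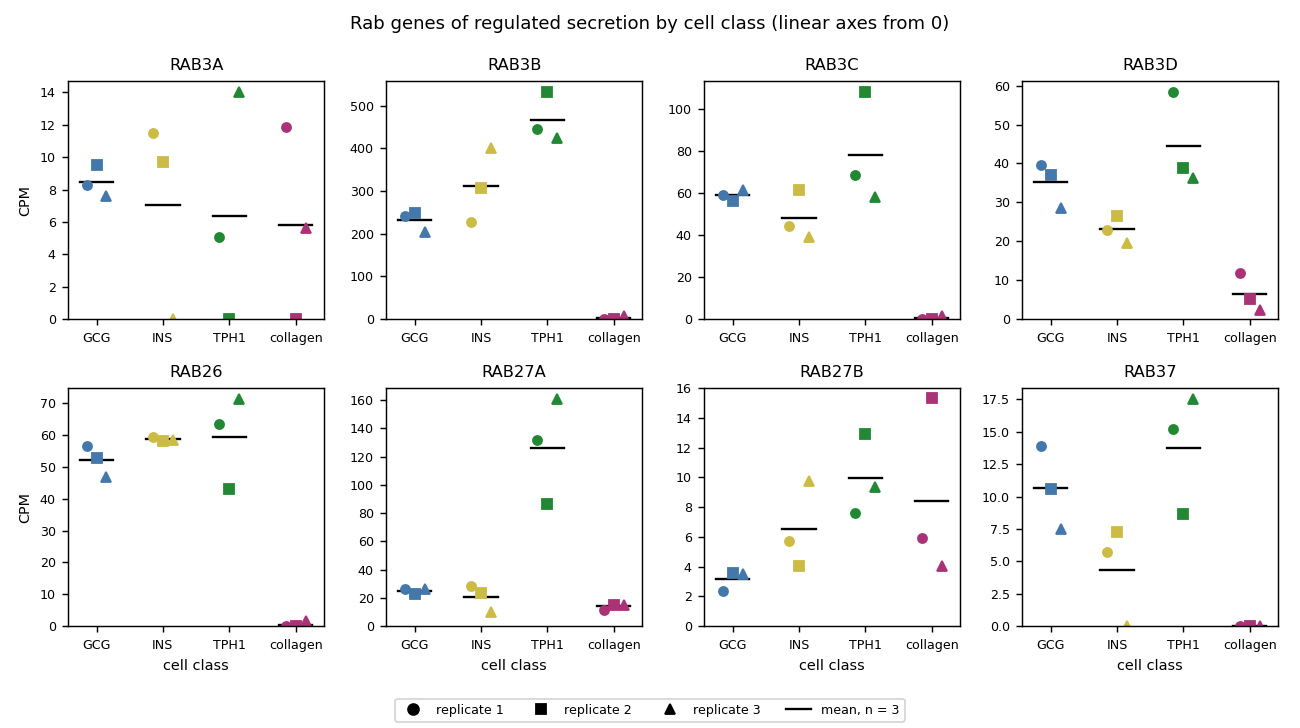
CPM of the 8 regulated-secretion Rab genes by cell class; each panel has its own linear axis from 0, symbols are libraries and lines the means of 3. RAB3B and RAB27A sit highest in TPH1 cells in all 3 libraries, and RAB3B, RAB3C, RAB26 and RAB37 are at or near 0 in collagen cells.

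RAB30, a Golgi Rab, measured 17.8, 21.6 and 29.2 CPM in TPH1 cells (7, 5 and 25 UMIs) against 5.90, 3.98 and 6.70 in GCG cells. The groups did not overlap, and the log2 fold change was 1.53 ± 0.36 (SE; edgeR adjusted p of 0.00635), which without replicate 3 became 1.38 with an edgeR adjusted p of 0.210. None of the other 9 tested members of the endoplasmic reticulum and Golgi list was called. RAB18, which acts at the endoplasmic reticulum and lipid droplets, came nearest by size among the abundant ones at 86.3, 104 and 111 CPM against 52.7, 54.4 and 54.1 (log2 fold change 0.41 ± 0.15 SE, edgeR adjusted p of 0.0942).

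The 3 members that fell in TPH1 cells were counted in few molecules or moved unevenly. RAB34, a Rab of cilium formation and lysosome positioning, measured 5.08, 30.2 and 4.67 CPM in TPH1 cells (2, 7 and 4 UMIs) against 21.1, 22.4 and 21.9 in GCG cells. Replicate 2 was above GCG cells and the other 2 libraries below, and 1 cell held 6 of its 7 UMIs there. The log2 fold change was -1.74 ± 0.42 (SE; edgeR adjusted p of 0.00808), and without replicate 3 it was -1.13 with an edgeR adjusted p of 0.144. RAB8B, which delivers cargo to the plasma membrane, measured 5.08, 8.64 and 18.7 CPM (2, 2 and 16 UMIs) against 19.2, 20.1 and 25.3, without overlap. Its log2 fold change was -1.30 ± 0.33 (SE; edgeR adjusted p of 0.0113) and -1.07 without replicate 1 (edgeR adjusted p of 0.0608). RAB29, a Rab of the Golgi and stressed lysosomes that recruits the kinase LRRK2, measured 76.2, 125 and 72.3 CPM against 101, 101 and 92.2. Its TPH1 values fell on both sides of the GCG values on plain CPM, and its call of -0.70 ± 0.16 (SE; edgeR adjusted p of 0.00606) is relative to the TMM scale; without replicate 1 it was -0.58 (edgeR adjusted p of 0.0534). DESeq2 did not call RAB8B or RAB29.

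Markers of other cell types also differed between TPH1 and GCG cells. Duct markers (4 of 4 detected) summed to 114 to 566 CPM in TPH1 cells against 115 to 122 in GCG cells, proliferation markers (4 of 4) to 2.54 to 151 CPM against 1.1 to 15.5, and endothelial markers other than VWF were at 0. Immune markers (2 of 3, LST1 at 0) summed to 33.0 to 90.7 CPM against 9.30 to 19.6, nearly all of it CD68. Neural markers (5 of 6, SOX10 at 0) summed to 281 to 612 CPM against 168 to 308, and SOX2 among them stood at 80.5 to 178 CPM against 0.168 to 3.40. Their part in these differences was not tested.

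The collagen cells differed most. Of 55 members tested against GCG cells, 7 rose and 14 fell, where 18.7% of all genes were called higher and 23.3% lower; the family's shares were 12.7% and 25.5%. The 7 include RAB38 and RAB7B, which could enter the test only through collagen cells. The 14 include RAB3B, RAB3C, RAB17, RAB26, RAB37, RAB39A and RAB39B, which could enter it only through GCG cells. Calls of those genes were bound to be downward. DESeq2 called 7 higher and 9 lower. The groups' plain CPM did not overlap for 33 of 55 members, against 59% of all genes, and the median log2 fold change was -0.41 over the members and -0.24 over all genes. Of the 8 secretion members 6 fell and 0 rose, with a median log2 fold change of -4.34, or -2.87 with RAB37 at the bound of a count of 0. The 6 include RAB3B, RAB3C, RAB26 and RAB37, whose direction was fixed by the filter. Of the 10 tested endoplasmic reticulum and Golgi members 0 were called, and of the 10 early endosome members 1 rose and 1 fell. Recycling members split 2 and 2 of 11, late endosome and lysosome members 3 and 3 of 8, the cilium list had 1 of 3 higher, and the other list 2 of 5 tested lower.

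RAB3B counted 0, 0 and 8 UMIs in collagen cells of replicates 1, 2 and 3 (0, 0 and 6.45 CPM) against 241, 249 and 205 CPM in GCG cells. The 8 UMIs lay in 8 different cells. Pooled over libraries it was 47.3-fold lower, with an exact 95% interval of 24.0 to 110 that covers counting error only, and edgeR gave a log2 fold change of -5.73 ± 0.39 (SE; adjusted p of 3.1e-09). RAB3C and RAB26, each with 2 UMIs in all collagen cells, were 46.9-fold (13.0 to 388) and 42.2-fold (11.7 to 349) lower by the same pooled count. RAB37 had 0 UMIs among 1604601 in collagen cells and was at least 5.89-fold lower, taking 3 counts over the group as the limit that a count of 0 allows. RAB3D fell less far, from 39.7, 37.1 and 28.6 CPM to 11.8, 5.12 and 2.42, or 2, 1 and 3 UMIs (log2 fold change -3.18 ± 0.49 SE, edgeR adjusted p of 5.5e-05). RAB27A was lower by a smaller step, at 11.8, 15.4 and 15.3 CPM against 26.1, 22.7 and 26.3 (log2 fold change -1.01 ± 0.38 SE, edgeR adjusted p of 0.0419); leaving out any 1 library ended its call, with edgeR adjusted p of 0.0775, 0.0650 and 0.219 without replicates 1, 2 and 3. RAB3A (log2 fold change -0.74 ± 0.64 SE, edgeR adjusted p of 0.381) and RAB27B (0.76 ± 0.71 SE, edgeR adjusted p of 0.422) were too sparse in these cells for a call.

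RAB34 showed the clearest rise. It lies at chr17:28714281-28718429 and measured 249, 261 and 219 CPM in collagen cells against 21.1, 22.4 and 21.9 in GCG cells, with all collagen values above all GCG values. The log2 fold change was 3.19 ± 0.21 (SE; edgeR adjusted p of 1.42e-09). Thinned, 73.7% ± 14.3 of collagen cells held a RAB34 UMI, against 10.5% ± 0.775 of GCG cells and 2.59% ± 2.34 of TPH1 cells (unthinned, 89.2% ± 2.16, 27.3% ± 7.24 and 7.21% ± 4.10). RAB23 and RAB28, the other members of the cilium list, were at 4.40 ± 0.285 and 12.1 ± 1.03 CPM in GCG cells and were not called in collagen cells (log2 fold changes of 0.98 ± 0.68 and 0.57 ± 0.40 SE, edgeR adjusted p of 0.260 and 0.269), so RAB34 made up most of the list's sum in collagen cells.

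Among early endosome members, RAB31 and RAB17 moved apart. RAB31, a RAB5-related Rab between the Golgi and endosomes, measured 59.2, 41.0 and 61.3 CPM in collagen cells (10, 8 and 76 UMIs) against 5.49, 6.0 and 6.80 in GCG cells. The groups did not overlap, and the log2 fold change was 2.89 ± 0.35 (SE; edgeR adjusted p of 3.48e-06), although 1 cell held 70.0% of the replicate 1 UMIs. RAB17 had 0 UMIs in all 127 collagen cells, against 40.5, 54.8 and 34.8 CPM in GCG cells and 50.8, 60.4 and 57.1 in TPH1 cells, and was at least 24.1-fold lower than in GCG cells by the 3-count limit. RAB5C (114 ± 11.9 CPM in collagen cells, 74.0 ± 8.65 in GCG cells), RAB4A (79.3 ± 13.6 and 62.5 ± 6.10) and RAB5A (52.7 ± 12.8 and 31.4 ± 1.71), which serve fusion at and rapid recycling from early endosomes, were not called, with log2 fold changes of 0.38, 0.08 and 0.47. RAB21, an early endosome Rab that binds integrins, measured 40.4 ± 6.14 and 52.5 ± 1.61 CPM (log2 fold change -0.67, edgeR adjusted p of 0.0588).

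In the recycling list RAB13, which acts at cell junctions and in traffic to the plasma membrane, rose from 138, 143 and 161 CPM in GCG cells to 314, 312 and 314 in collagen cells (log2 fold change 0.81 ± 0.18 SE, edgeR adjusted p of 0.0013). RAB8A, a Rab of exocytosis and cilia, rose from 21.5, 26.7 and 24.3 CPM to 65.1, 51.2 and 65.3 (1.09 ± 0.29 SE, edgeR adjusted p of 0.00553; without replicate 3, 0.90 with an edgeR adjusted p of 0.156). Neither gene's groups overlapped. RAB11A fell from 212, 210 and 212 CPM to 113, 143 and 107, again without overlap (-1.09 ± 0.20 SE, edgeR adjusted p of 0.000236). RAB10 and RAB14, which act in delivery of membrane proteins to the surface, were not called, at 88.1 ± 20.1 and 94.3 ± 16.3 CPM in collagen cells against 92.6 ± 2.75 and 104 ± 7.0 in GCG cells.

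RAB25, an epithelial relative of RAB11A, rested on a few collagen cells. It measured 88.8, 20.5 and 3.23 CPM in collagen cells of replicates 1, 2 and 3 (15, 4 and 4 UMIs) against 65.8, 88.5 and 75.6 in GCG cells, so replicate 1 was above GCG cells and the others below. Those UMIs came from 2, 1 and 2 cells, and the cell with the most held 10, 4 and 3 of them. Cells with an EPCAM UMI, the epithelial adhesion molecule, held all of them; 0 lay outside. The top cells also carried 137, 16 and 51 UMIs of KRT19, a duct keratin, beside 7, 26 and 13 collagen UMIs; EPCAM and KRT19 were chosen for this look after the values were seen. Duct markers (3 of 4 detected, CFTR at 0) summed to 157 to 3084 CPM in collagen cells against 115 to 122 in GCG cells. The log2 fold change was -2.20 ± 0.55 (SE; edgeR adjusted p of 0.00383), and without replicate 3 it was -0.91 with an edgeR adjusted p of 0.122.

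Late endosome and lysosome members went both ways. RAB9A, which returns cargo from late endosomes to the Golgi, rose from 15.2, 18.2 and 17.9 CPM to 71.0, 66.5 and 42.7 (log2 fold change 1.43 ± 0.31 SE, edgeR adjusted p of 0.00132), without overlap. Its relative RAB9B fell from 16.3, 15.9 and 15.3 CPM to 5.92, 5.12 and 6.45, or 1, 1 and 8 UMIs (-1.54 ± 0.50 SE, edgeR adjusted p of 0.019), and lost its call without replicate 2 (edgeR adjusted p of 0.0547) or replicate 3 (0.165). RAB29 fell from 101, 101 and 92.2 CPM to 5.92, 5.12 and 19.4 (-2.94 ± 0.35 SE, edgeR adjusted p of 2.65e-06). All RAB29 values in collagen cells were far below those in GCG cells. RAB7A, the general late endosome Rab, fell slightly, from 127, 145 and 134 CPM to 82.9, 123 and 110 (-0.61 ± 0.21 SE, edgeR adjusted p of 0.0259), and missed the threshold without replicate 1 (0.0708) or replicate 2 (0.0776). RAB38, a Rab of lysosome-related organelles, and RAB7B, of late endosome to Golgi traffic, passed the low-count filter through collagen cells alone, so their calls were bound to be upward: they counted 2, 1 and 6 and 1, 2 and 7 UMIs there, against 1, 5 and 0 and 3, 3 and 0 in all GCG cells. RAB32, a relative of RAB38, was at 35.5, 123 and 72.6 CPM in collagen cells against 42.7, 38.9 and 41.1 (edgeR adjusted p of 0.0918).

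Of the endoplasmic reticulum and Golgi members, which serve every cell's secretory pathway, RAB2A measured 278, 164 and 230 CPM in collagen cells against 146, 160 and 176 in GCG cells, with overlap and no call (log2 fold change 0.19 ± 0.20 SE). RAB1A stood at 101 ± 24.4 against 86.9 ± 1.64 CPM, and RAB1B at 40.3 ± 3.98 against 50.1 ± 1.71, with edgeR adjusted p of 0.963 and 0.150. In the other list RAB39B, a largely neuronal Rab, fell from 17.3, 18.9 and 18.3 CPM to 0, 5.12 and 9.68, or 0, 1 and 12 UMIs (-1.50 ± 0.50 SE, edgeR adjusted p of 0.0228). It lost its call with DESeq2 and with cells thinned to 5000 UMIs. RAB39A had 0 UMIs in collagen cells and was at least 1.81-fold lower, a call that ended without replicate 3 (edgeR adjusted p of 0.377). RAB36 (6.25 ± 0.532 CPM), RAB40B (10.2 ± 0.539) and RAB40C (9.66 ± 1.05), given here at their levels in GCG cells, were not called in any comparison.

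**Figure D4:**
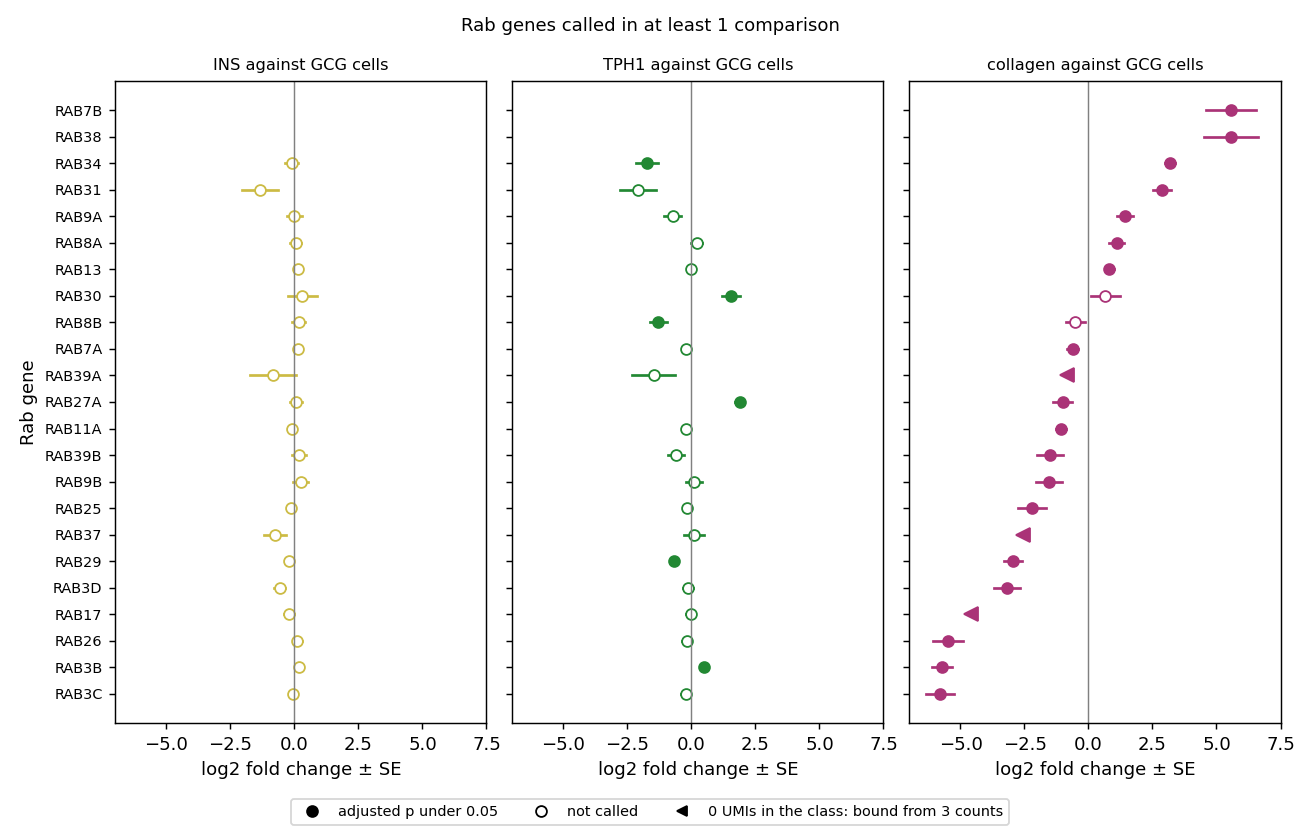
Log2 fold change ± SE (edgeR, TMM scale) against GCG cells of the 23 Rab genes called in at least 1 comparison, in INS, TPH1 and collagen cells; filled symbols passed an adjusted p of 0.05, triangles are bounds for genes with 0 UMIs in collagen cells, and a blank means not tested. No INS symbol is filled, 6 TPH1 symbols are, and 21 collagen symbols are.

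**Figure D5:**
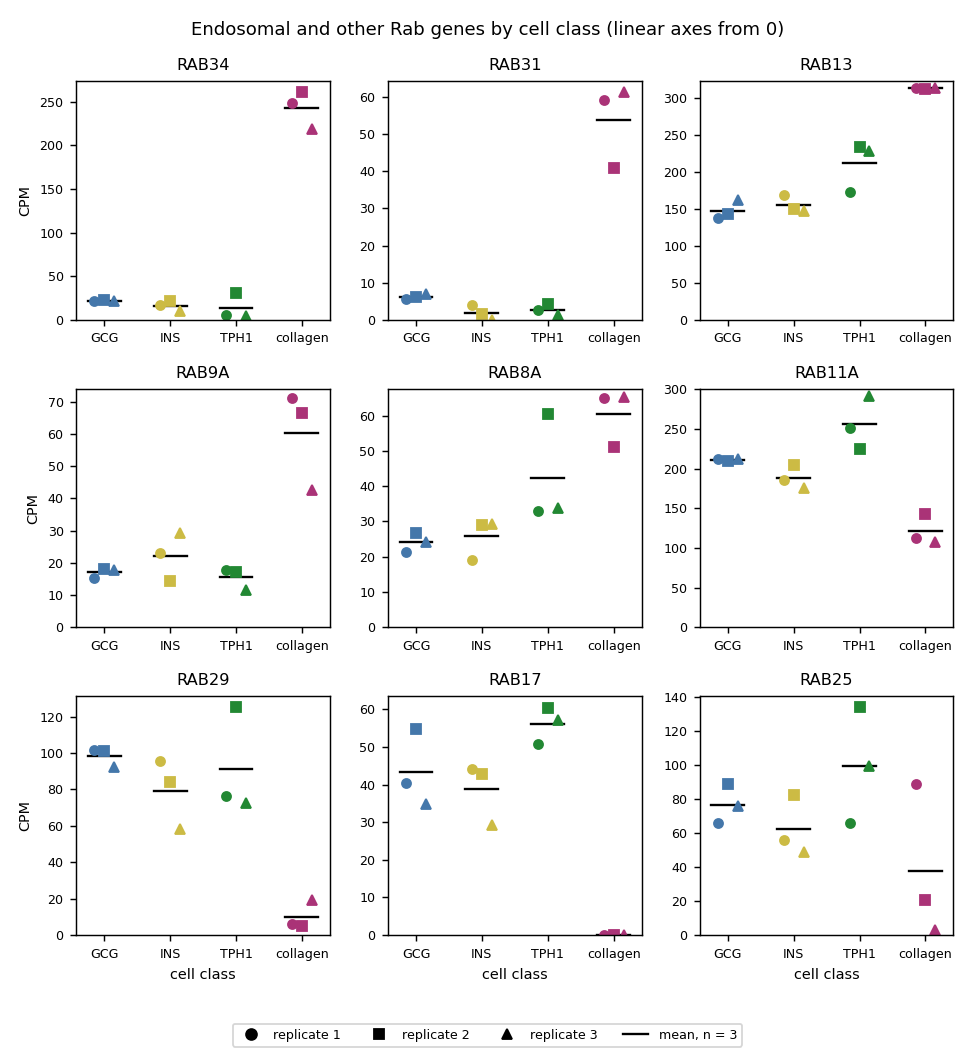
CPM of 9 endosomal, recycling and ciliary Rab genes by cell class, each panel with its own linear axis from 0; symbols are libraries and lines the means of 3. RAB34 lies at 219 to 261 CPM in collagen cells, RAB17 at 0, and RAB25 falls from 88.8 to 3.23 CPM between collagen libraries.

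Collagen cells differed from GCG cells in more than their collagen. Their median mitochondrial share was 9.20 to 10.7% of UMIs against 14.8 to 15.1%, and replicate 3 supplied 106 of the 127 cells. Endothelial and acinar markers were all at 0 in them. Whether the proliferation markers, the duct markers or the mitochondrial share had a part in the Rab differences was not tested. Without replicate 3, 4 members rose and 10 fell; without replicate 1 these counts were 6 and 12, and without replicate 2 they were 5 and 11.

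The proteins that act on Rabs were read from 6 lists of 83 genes, which cover lipid carriers, exchange factors, GTPase activators, effectors of secretion, effectors of endosomes and Golgi, and a kinase and phosphatase. In INS cells 1 of 75 tested was called, where 0.862% of all genes were called higher and 0.465% lower. It was the prenylated Rab acceptor RABAC1, at 247 and 227 CPM against 198 and 171 in replicates 1 and 2 (log2 fold change 0.37, edgeR adjusted p of 0.0102), and 6 of 11 alternative settings ended that call. In TPH1 cells 8 of 74 rose and 2 fell, where 6.5% of all genes were called higher and 7.67% lower. The 8 include SYTL2, which could enter the test only through TPH1 cells. The 2 that fell, RAB3IL1 and RIN2, could enter it only through GCG cells. In collagen cells 3 of 74 rose and 29 fell, among them 9 of 18 exchange factors, 6 of 12 GTPase activators and 5 of 7 tested secretion effectors. The shares of all genes called in collagen cells are 18.7% higher and 23.3% lower. The 29 include MLPH, RPH3AL, SYTL5, TBC1D30 and RAB3IL1, which could enter the test only through GCG cells.

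SYTL2, a granule-docking effector that binds GTP-bound RAB27A, was called higher in TPH1 cells. It could pass the low-count filter only through its TPH1 sums, so its call was bound to be upward. It measured 38.1, 51.8 and 37.3 CPM in TPH1 cells (15, 12 and 32 UMIs) and 1.49, 2.30 and 1.3 in GCG cells, without overlap (log2 fold change 4.14, edgeR adjusted p of 8.35e-07). In replicates 1 and 2, 1 cell held 40.0% and 41.7% of its UMIs. TBC1D1, a GTPase activator for Rabs of surface delivery, measured 104, 104 and 65.3 CPM against 16.9, 13.2 and 15.9 (log2 fold change 1.97, edgeR adjusted p of 2.17e-06). OSBPL1A, a RAB7 effector, and DENND1B, an exchange factor for RAB35, were also higher (log2 fold changes of 1.20 and 1.13); DENND1B lost its call without replicate 3 (edgeR adjusted p of 0.182). RAB3IL1, an exchange factor known to bind RAB3A, fell from 13.4, 14.7 and 15.8 CPM to 0, 0 and 1.17, a single UMI, which is 21.5-fold lower by pooled count with an interval of 3.84 to 850. RIN2, an exchange factor for RAB5, fell from 13.1, 10.5 and 12.0 CPM to 5.08, 0 and 1.17, or 3 UMIs in all (5.81-fold, 1.98 to 28.3). Both RAB3IL1 and RIN2 could pass the filter only through their GCG sums, so their calls were bound to be downward.

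In collagen cells the 5 secretion effectors that fell were MLPH, RPH3AL, RIMS2, SYTL5 and SYTL1. MLPH, RPH3AL and SYTL5, like TBC1D30, could pass the low-count filter only through GCG sums. Their calls were bound to be downward. RIMS2, a RAB3 effector at release sites, measured 5.92, 5.12 and 3.23 CPM against 63.8, 60.1 and 58.1 in GCG cells (log2 fold change -4.15). RPH3AL, a RAB3 and RAB27 effector of endocrine granules, counted 2 UMIs in collagen cells and was 21.0-fold lower (5.80 to 174). MLPH, which links RAB27A to myosin, had 0 UMIs and was at least 2.42-fold lower, and the activator TBC1D30, also at 0, at least 1.76-fold; both calls ended without replicate 2 (edgeR adjusted p of 0.0513 and 0.0711) or replicate 3 (0.254 and 0.349). OSBPL1A (53.3, 25.6 and 45.2 CPM against 10.2, 11.4 and 11.2), RILPL1, an effector of phosphorylated Rabs (11.8, 40.9 and 28.2 against 7.46, 6.61 and 9.20), and RABAC1 (533, 292 and 435 against 198, 171 and 253) were the 3 that rose. Without replicate 3 the edgeR adjusted p of OSBPL1A was 0.0841 and that of RILPL1 0.177. RABAC1 lost its call with DESeq2 and with stricter class rules.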

How the data were processed

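The authors deposited unnormalized UMI counts for every gene and barcode. The libraries were 10x Genomics 3′ v3 per the labels' protocols, and the submitters' processing notes name Cell Ranger 4.0.0 and the build GRCh38. The annotation version was not given in the sources used here. Gene positions come from GENCODE 29 (GRCh38).

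Of the 3653 barcodes kept under the limits on genes and mitochondrial share, 2921 fell in 1 of 4 classes. Those meeting the rules of 2 classes were left out, except that INS cells could meet the GCG rule. Scrublet (scanpy 1.11.5) marked 47 of the 3653 as doublets, which stayed in and were removed as an alternative. Counts were summed per library and class with at least 10 cells and tested with edgeR 4.0.16 (TMM, filterByExpr, R 4.3.3), the library as block because both sums of a pair come from 1 library; SE is the log2 fold change over the square root of F. The procedure was also run on simulated counts with a common dispersion and no library effect. That run does not measure the error rate of the calls given here. DESeq2 1.42.0, other filters and thinning to 5000 UMIs were alternatives. Shares and sums carry no test.

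The members, lists and class rules were chosen with earlier results of these data known. The text names every secretion member, the 4 members highest by mean CPM in each other role list and every called member, which makes 41, and of the proteins acting on Rabs up to 4 per direction and comparison by size of change.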

Additional observations from a re-analysis of the deposited data

How the results depend on the processing

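No called Rab member changed sign under any alternative run. Neither did the called proteins acting on Rabs that were picked by size of change. Signs of other called genes were not compared between settings. RAB27A alone of the 6 members called in TPH1 cells, and 14 of the 21 called in collagen cells, passed in every alternative in which they were tested. The 14 include RAB38 and RAB7B, tested in only 7 and 8 alternatives. Their record is no measure of robustness, since their calls were bound to be upward. RAB3B, RAB3C, RAB17, RAB26 and RAB37, also among the 14, passed the low-count filter only through GCG cells. Their calls were bound to be downward, so their record is to be read the same way. The members higher in TPH1 cells numbered 3, and 5 with up to 30% mitochondrial UMIs; leaving out 1 library gave 1 to 4, the 1 being without replicate 3. The members lower there numbered 3, and 1 by DESeq2, 7 with up to 30% mitochondrial UMIs and 1 to 4 with 1 library left out. With up to 30% mitochondrial UMIs, 1 member (RAB3B) was higher in INS cells, where 0 were otherwise. In collagen cells the members higher numbered 7, and 12 with no replicate block, the fit that ignores the pairing of sums within a library; 1 library left out gave 4 to 6. The members lower numbered 14, and 9 by DESeq2 and 10 to 12 with 1 library left out. Stricter class rules moved the summed Rab level to 2262 CPM in GCG cells, 2215 in INS cells, 3166 in TPH1 cells and 2284 in collagen cells; the INS value rests on 3, 5 and 2 cells in the 3 libraries. Within those 4 values TPH1 cells remained the highest. The cause of these shifts was not tested. For INS cells the fits without replicate 1 and without replicate 2 were not run, since each leaves 1 library, nor was the fit with stricter class rules, which leaves 0. A minimum of 5 INS cells, chosen after seeing the data, brought in replicate 3 and gave 0 calls. The 10 and 11 collagen cells of replicates 1 and 2, and the 17 TPH1 cells of replicate 2, limit every value given for them.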

Other observations

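Cells that passed the filters but met no class rule numbered 263, 129 and 340 in replicates 1, 2 and 3. Their summed Rab level was 2759, 3020 and 2706 CPM. RAB3B, the granule Rab, stood at 273, 266 and 221 CPM in them, and RAB27A at 42.8, 45.3 and 47.0. Barcodes that met the glucagon rule but exceeded the mitochondrial limit numbered 287, 184 and 427, with a summed Rab level of 2104, 2100 and 2182 CPM. In those barcodes RAB3B was at 255, 232 and 213 CPM and RAB11A at 195, 171 and 188.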
